A study of Mus musculus with 6 samples.

Results

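The semaphorins, plexins, neuropilins, netrins, Unc5 receptors, Slits and Robos are the genes of 3 classical axon guidance systems, and their expression was compared between mouse embryonic fibroblasts (MEFs) with and without Atxn3. Members were taken by symbol, from probe sets that name a single gene: every gene whose symbol starts with Sema, Plxn, Robo, Ntng or Unc5, with Nrp followed by 1 or 2, with Slit followed by 1 to 3, or with Ntn followed by a digit. The rule found 51 of the 18193 genes measured, read by 114 probe sets, and the probe set with the highest mean over all 6 arrays stood for each gene. Of these, 48 belong to the families. The other 3 fit the rule by symbol but are not counted in the families. They are Unc50, a Golgi membrane protein, Unc5cl, an Unc5-like protein that is no netrin receptor, and Plxna4os1, an antisense transcript of Plxna4.

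The samples were 3 Atxn3-WT and 3 Atxn3-KO MEF samples, each hybridized to 1 Affymetrix mouse genome array, which reads a transcript with sets of short oligonucleotide probes. ATXN3 is the deubiquitinating enzyme whose expanded form causes spinocerebellar ataxia, and the study asked which transcripts change when it is missing. Atxn3-KO MEFs came from Atxn3 knockout mice and Atxn3-WT MEFs from wild-type mice, and the methods speak of a MEF line of each genotype. No agent or time point is given for these arrays. The methods call the replicates biological but do not say how many embryos or cultures lie behind them, so a p-value reflects no more than how these samples scattered, possibly for technical reasons. Levels below are log2 values after robust multi-array averaging (RMA), a difference of 1 is a 2-fold change, and log2FC is the log2 fold change, Atxn3-KO minus Atxn3-WT, given ± its standard error. Adjusted p-values come from limma with Benjamini-Hochberg adjustment over 45037 probe sets. The targeted gene read 6.53, 6.81 and 6.66 in Atxn3-WT MEFs but 3.60, 3.43 and 3.73 in Atxn3-KO MEFs.

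Semaphorins are secreted or membrane-bound ligands that share a sema domain. Class 3 semaphorins are secreted and mostly bind a neuropilin, which holds no signaling domain of its own and passes the signal on through a plexin. Netrins are laminin-like secreted proteins that attract axons through Dcc or neogenin and repel them through Unc5 receptors, and Slits are secreted proteins with leucine-rich repeats that repel through Robo receptors. Outside the nervous system the same proteins steer endothelial cells, neural crest and mesenchyme, and fibroblasts make many of them.

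The guidance genes changed in both directions, and the large changes were losses of secreted ligands. Of the 51 genes, 14 rose in Atxn3-KO MEFs and 9 fell at a limma adjusted p under 0.05, while 28 did not pass. The 45.1% that passed stand beside 31.8% of all genes, the 27.5% that were higher beside 17.1%, and the 17.6% that were lower beside 14.7%, so the count of lower genes was close to the background. An adjusted p of at most 0.001 together with a 2-fold change, the thresholds of the study's methods, was met by 4 genes, Slit2, Sema3d, Sema3e and Ntn1, all of them secreted ligands and all lower. These 4 are 7.84% of the members, beside 1.93% of all genes in either direction, 0.649% in the lower and 1.28% in the higher direction. Over all probe sets of the members, 43 of 114 passed (37.7%), beside 26% of the whole array. The median log2FC of the members was 0.053, beside 0.0021 over all genes, and the median size was 0.18, beside 0.11. In bulk RNA, fewer cells of a type and less RNA per cell cannot be told apart.

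Counts by role were as follows. Among 16 secreted ligands (class 3 semaphorins, netrins and Slits, with the membrane-anchored netrin-G genes counted among the netrins), 4 were higher and 6 were lower. The ligands' share that passed was 62.5%, beside 31.8% of all genes. By direction, 25% were higher, beside 17.1%, and 37.5% lower, beside 14.7%. Among 19 receptors (plexins, neuropilins, Unc5 and Robo genes), 6 rose and 0 fell by limma, with 10 and 0 at an unadjusted p under 0.05. The receptors' share of 31.6% is close to the 31.8% of all genes. Split by direction, 31.6% of receptors were higher, beside 17.1%, and 0% lower, beside 14.7%. The difference between ligands and receptors was not tested. The plot of fold changes by family shows these counts gene by gene.

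**Figure D1:**
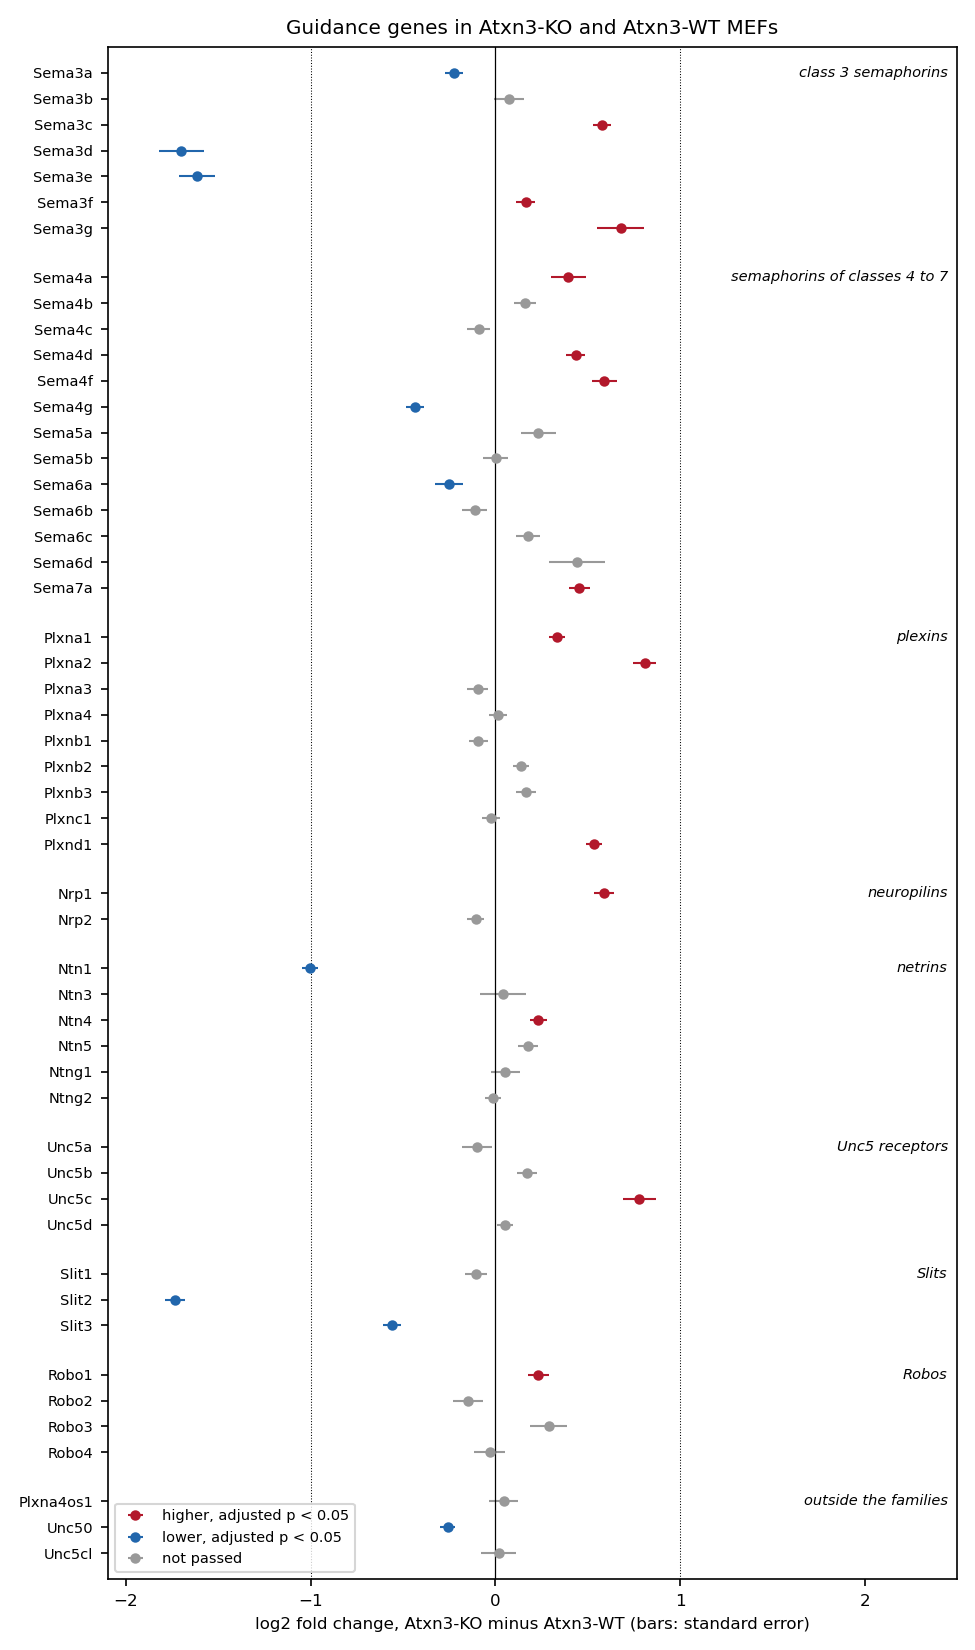
Log2 fold change, Atxn3-KO minus Atxn3-WT (horizontal axis), of each of the 51 genes, grouped by family; points are limma estimates, bars are standard errors, and dotted lines mark 2-fold. Slit2, Sema3d, Sema3e and Ntn1 lie at or beyond the left dotted line, and no gene lies beyond the right one.

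The class 3 semaphorins moved both ways within 1 family. Of 7 genes, 3 rose, 3 fell and 1 did not pass, so that 85.7% passed beside 31.8% of all genes. A row of 4, Sema3d, Sema3a, Sema3e and Sema3c, follow each other in this order on chromosome 5, with 0 annotated coding genes between Sema3d and Sema3a, 3 between Sema3a and Sema3e, and 15 between Sema3e and Sema3c. The first 3 of the row were lower in Atxn3-KO MEFs and Sema3c was higher.

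Sema3d, which guides endothelial and neural crest cells, had log2 levels of 7.26, 7.10 and 7.29 in Atxn3-WT MEFs and 5.44, 5.31 and 5.80 in Atxn3-KO MEFs. Its groups were far apart, and its log2FC was -1.70 ± 0.12 (limma, adjusted p = 9.57e-05). A dimmer Sema3d probe set had -0.53, the mean of both gave -1.11, and without Atxn3-WT replicate 1 the adjusted p rose to 0.00103, past the study's limit of 0.001. Sema3e, which differs from the other class 3 members in binding Plexin-D1 without a neuropilin, had levels of 8.13, 7.88 and 8.15 in Atxn3-WT MEFs and 6.29, 6.45 and 6.57 in Atxn3-KO MEFs. That is a log2FC of -1.62 ± 0.096 (limma, adjusted p = 3.99e-05), and all 4 Sema3e probe sets fell, between -1.73 and -1.58. Sema3a, the prototype repellent of sensory axons, fell by less, with 9.39, 9.47 and 9.33 in Atxn3-WT MEFs, 9.16, 9.19 and 9.17 in Atxn3-KO MEFs and a log2FC of -0.23 ± 0.049 (limma, adjusted p = 0.0137). Its dimmer probe sets gave -0.38 and -0.64, and the mean of the 3 was -0.41.

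Sema3c, which acts in the outflow tract of the heart, rose. Its levels were 9.01, 8.95 and 8.91 in Atxn3-WT MEFs and 9.51, 9.51 and 9.58 in Atxn3-KO MEFs, a log2FC of 0.58 ± 0.048 (limma, adjusted p = 1.83e-04), and its other probe set gave 0.47. The groups did not overlap for either. Sema3g, an endothelial semaphorin, had 5.79, 6.21 and 5.80 against 6.55, 6.77 and 6.52, a log2FC of 0.68 ± 0.13 (limma, adjusted p = 0.00665). One Atxn3-WT array lay above its fellows, yet below every Atxn3-KO array. Sema3f, the main ligand of neuropilin 2, had 9.72, 9.74 and 9.61 against 9.87, 9.86 and 9.83 and a log2FC of 0.16 ± 0.050 (limma, adjusted p = 0.0480). Leaving out any single array took this Sema3f probe set past 0.05, with values between 0.13 and 0.19, while its other probe sets gave 0.28 and 0.37 with limma adjusted p-values of 0.00802 and 0.00186, and the mean of the 3 was 0.27. The brightest Sema3f probe set also missed 0.05 with the replicate number as a block and after quantile normalization (limma adjusted p = 0.0730 and 0.0651). That probe set carries a suffix for probes that may match other transcripts. Sema3b did not pass, with 0.074 (limma adjusted p = 0.583).

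The start regions of Sema3d, Sema3e, Sema3c and Slit2, all on chromosome 5, are shown because they carry the largest losses and, for Sema3c, the gain in the same row. That of Sema3a, the neighbour with the smaller loss, is not shown. G and C made up 41.3% of the Sema3a window, with 2 CpG pairs and no match to the motifs below. Each is 250 bases before to 50 after the annotated start in RefSeq, build GRCm38.p6, on the + strand, at chr5:12382916-12383215, chr5:14025026-14025325, chr5:17574566-17574865 and chr5:47982905-47983204. Capitals mark matches on either strand to TATAAA (the TATA box), CCAAT (the CCAAT box), GGGCGG (the GC box) or CACGTG (an E-box), and no match overlaps another.
Sema3d: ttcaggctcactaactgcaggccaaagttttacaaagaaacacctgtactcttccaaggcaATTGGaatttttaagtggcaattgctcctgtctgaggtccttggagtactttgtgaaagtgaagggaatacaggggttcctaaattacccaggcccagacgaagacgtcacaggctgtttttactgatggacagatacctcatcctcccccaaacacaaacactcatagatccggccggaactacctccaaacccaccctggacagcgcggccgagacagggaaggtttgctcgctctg
Sema3e: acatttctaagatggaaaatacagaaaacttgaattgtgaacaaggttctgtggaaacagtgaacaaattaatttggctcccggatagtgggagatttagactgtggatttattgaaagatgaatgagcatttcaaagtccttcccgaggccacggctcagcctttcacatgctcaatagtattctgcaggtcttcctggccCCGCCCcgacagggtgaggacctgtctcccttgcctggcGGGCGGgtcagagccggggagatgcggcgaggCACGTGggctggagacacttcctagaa
Sema3c: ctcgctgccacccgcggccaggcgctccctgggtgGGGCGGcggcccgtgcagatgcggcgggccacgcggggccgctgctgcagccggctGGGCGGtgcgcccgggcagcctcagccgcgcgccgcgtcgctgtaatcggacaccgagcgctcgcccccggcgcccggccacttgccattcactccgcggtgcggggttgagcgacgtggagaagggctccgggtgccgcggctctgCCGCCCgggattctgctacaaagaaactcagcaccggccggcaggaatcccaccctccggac
Slit2: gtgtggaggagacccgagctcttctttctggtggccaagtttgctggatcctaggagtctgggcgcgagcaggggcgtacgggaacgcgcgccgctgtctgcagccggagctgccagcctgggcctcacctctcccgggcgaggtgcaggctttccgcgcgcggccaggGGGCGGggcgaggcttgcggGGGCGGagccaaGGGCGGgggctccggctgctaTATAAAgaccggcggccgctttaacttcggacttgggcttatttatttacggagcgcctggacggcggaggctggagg
Of 32851 promoter windows in the same table, 13.6% held TATAAA, 37.4% CCAAT, 35.7% GGGCGG and 7.15% CACGTG. The Slit2 window held 3 GC boxes and a TATAAA, the Sema3c window 3 GC boxes, the Sema3e window 2 GC boxes and a CACGTG, and the Sema3d window a CCAAT alone. The windows also differed in composition: G and C made up 75.7% of the Sema3c window, with 42 CpG pairs, and 68.0% of the Slit2 window, with 30, but 50.7% for Sema3e, with 11, and 49.7% for Sema3d, with 8. The median of all windows was 52.7%, with 7 CpG pairs. These are descriptions of sequence and say nothing of which factors were bound. The table held a window for 42 members. Ntn1, Plxna1, Plxna4, Plxna4os1, Sema3b, Sema3f, Sema6a, Slit1 and Unc5d are named only.

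Among 13 semaphorins of classes 4 to 7, which are bound to the membrane as made (Sema7a by a lipid anchor), log2FC values ran from -0.44 to 0.59. Here 4 rose, 2 fell and 7 did not pass, a share of 46.2% beside 31.8% of all genes. Sema4f had levels of 6.35, 6.49 and 6.44 in Atxn3-WT MEFs and 6.90, 7.06 and 7.10 in Atxn3-KO MEFs, a log2FC of 0.59 ± 0.067 (limma, adjusted p = 7.27e-04). That probe set carries the suffix for probes that may match other transcripts, and the other Sema4f probe set gave 0.13 (limma adjusted p = 0.119), with a mean of 0.36. Sema4d, a ligand of Plexin-B1 and of CD72 on lymphocytes, had a log2FC of 0.44 (0.21 for the mean of its probe sets). The dimmer Sema4d probe sets gave 0.15 and 0.049 and did not pass (limma adjusted p = 0.225 and 0.824). Sema7a, a ligand of Plexin-C1 and of integrins, had 0.46, and Sema4a had 0.40. The other Sema7a probe set gave 0.22 and did not pass. Sema4g fell, with -0.44, as did Sema6a, with -0.25.

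The calls of Sema4a and Sema6a were the weakest in this group. Without Atxn3-WT replicate 2 or 3, or Atxn3-KO replicate 2 or 3, Sema4a no longer passed, and Sema6a was lost in the same cases and without Atxn3-WT replicate 1. Sema6a was also lost with the replicate number as a block (limma adjusted p = 0.0576). The other Sema6a probe sets gave -0.28 (limma adjusted p = 0.361) and 0.041 (limma adjusted p = 0.625), and the mean of the 3, -0.16, did not pass (limma adjusted p = 0.15). Among those that did not pass, Sema4b had 8.35, 8.20 and 8.32 in Atxn3-WT MEFs and 8.37, 8.47 and 8.49 in Atxn3-KO MEFs, which do not overlap, with a log2FC of 0.16 (limma adjusted p = 0.0887). The remaining log2FC values were 0.44 for Sema6d (95% interval 0.092 to 0.79), 0.23 for Sema5a, 0.18 for Sema6c, 0.0020 for Sema5b, -0.091 for Sema4c and -0.11 for Sema6b. None of these 6 passed, and the Sema6d groups overlapped.

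Plexins are the signaling receptors of semaphorins. Of 9 plexins, 3 rose and 0 fell by limma, with 5 and 0 at an unadjusted p under 0.05. The 33.3% that passed is close to the 31.8% of all genes. Split by direction, 33.3% were higher, beside 17.1% of all genes, and 0% lower, beside 14.7%. Plxna2, a receptor of class 3 semaphorins with neuropilins and of class 6 semaphorins without them, had levels of 6.76, 6.86 and 6.67 in Atxn3-WT MEFs and 7.53, 7.63 and 7.55 in Atxn3-KO MEFs. Its log2FC was 0.81 ± 0.061 (limma, adjusted p = 1.13e-04), and its 4 probe sets all rose, from 0.81 to 0.97. Plxnd1, the receptor of Sema3e, had 8.24, 8.19 and 8.21 against 8.78, 8.74 and 8.72, a log2FC of 0.53 ± 0.043 (limma, adjusted p = 1.53e-04). Sema3e and its receptor thus moved in opposite directions. Plxna1 rose by 0.34 ± 0.043 (limma, adjusted p = 0.00135), or 0.20 as the mean of both its probe sets. The dimmer Plxna1 probe set gave 0.069 and did not pass (limma adjusted p = 0.503).

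The B plexins, which respond to class 4 semaphorins, did not pass. Plxnb2 had 11.71, 11.74 and 11.71 in Atxn3-WT MEFs and 11.89, 11.88 and 11.81 in Atxn3-KO MEFs, a log2FC of 0.14 (95% interval 0.037 to 0.24, limma adjusted p = 0.0539). The groups did not overlap, but this difference missed the threshold. Plxnb1 had -0.092 and Plxnb3 0.17, with adjusted p-values of 0.238 and 0.0641. Plxna3, Plxna4 and Plxnc1 had -0.097, 0.014 and -0.024. The X-linked plexins are Plxna3 and Plxnb3. Xist, the RNA of the inactive X chromosome, had a mean log2 level of 11.89 in Atxn3-WT MEFs and 11.99 in Atxn3-KO MEFs, and the Y-linked genes Eif2s3y, Kdm5d and Uty stayed under every array's 25th percentile in both.

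Of the neuropilins, which class 3 semaphorins and VEGF use as co-receptors, Nrp1 rose and Nrp2 did not pass. Nrp1 had levels of 9.941, 10.005 and 10.053 in Atxn3-WT MEFs and 10.56, 10.53 and 10.66 in Atxn3-KO MEFs, with a log2FC of 0.59 ± 0.055 (limma, adjusted p = 3.04e-04). The groups were well apart on this probe set, and 2 others gave 0.64 and 0.54. A dimmer Nrp1 probe set had -0.095 (limma adjusted p = 0.517). Nrp2 had 9.596, 9.552 and 9.596 against 9.49, 9.41 and 9.52, which do not overlap, a log2FC of -0.11 (95% interval -0.22 to 0.0041, limma adjusted p = 0.1502), and none of its 4 probe sets passed. Whether the 2 neuropilins differ in their change was not tested.

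**Figure D2:**
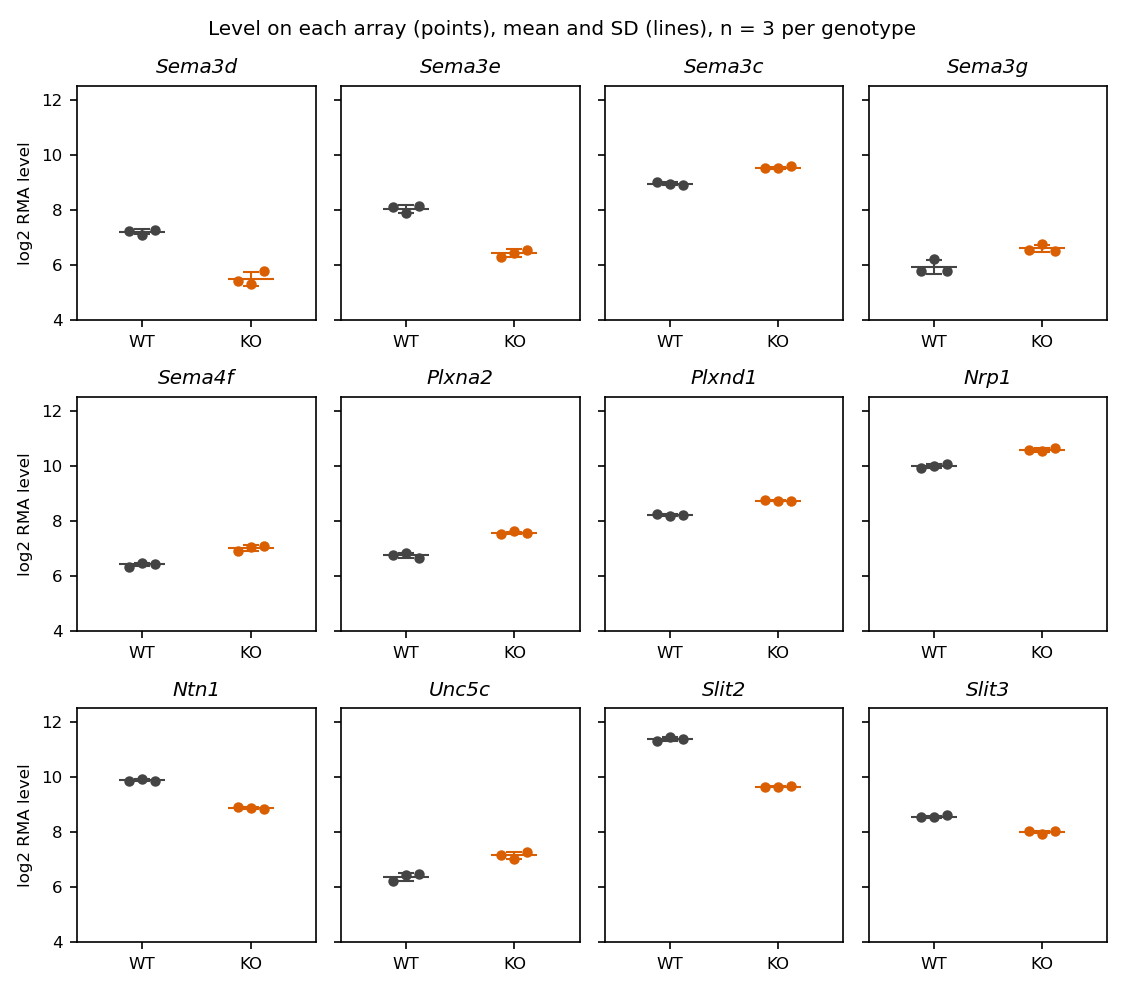
Log2 RMA level (vertical axis) of the 12 members with an adjusted p under 0.05 and a log2 fold change of at least 0.5 in size, in Atxn3-WT (WT) and Atxn3-KO (KO) MEFs; points are arrays, lines the mean and SD of 3. In each panel the 3 Atxn3-KO points lie all above or all below the 3 Atxn3-WT points.

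In the netrin system the ligand Ntn1 fell and 1 of its repulsive receptors rose. Ntn1, the founding netrin, had levels of 9.86, 9.92 and 9.86 in Atxn3-WT MEFs and 8.92, 8.86 and 8.84 in Atxn3-KO MEFs, a log2FC of -1.004 ± 0.045 (limma, adjusted p = 9.87e-06). This sits on the 2-fold limit: leaving out Atxn3-WT replicate 2 or Atxn3-KO replicate 2 or 3 gave -0.98, -0.998 and -0.99, just short of it. The dimmer Ntn1 probe set gave -0.44 (limma adjusted p = 0.00170), and the mean of both, -0.72, fell further short of 2-fold. Ntn4, a netrin of basement membranes that binds laminin, had 9.61, 9.56 and 9.52 against 9.78, 9.84 and 9.78 and rose by 0.23 ± 0.046 (limma, adjusted p = 0.00892). The dimmer Ntn4 probe set gave 0.195 and did not pass (limma adjusted p = 0.0640). Ntn5 had 0.18 (adjusted p = 0.0527), Ntng1 0.055, Ntn3 0.041 and Ntng2 -0.013, and none of these 4 passed.

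Unc5c, whose loss in mice misroutes cerebellar neurons, had levels of 6.21, 6.43 and 6.48 in Atxn3-WT MEFs and 7.17, 7.02 and 7.27 in Atxn3-KO MEFs. Its log2FC was 0.78 ± 0.089 (limma, adjusted p = 7.71e-04), and its dimmer probe set gave 0.54 (adjusted p = 0.00679). Unc5b, the Unc5 receptor of endothelial cells, had 10.39, 10.41 and 10.52 against 10.67, 10.58 and 10.60, a log2FC of 0.17 (95% interval 0.046 to 0.30, limma adjusted p = 0.0536). The Unc5b groups did not overlap, although the call was missed. Unc5a had -0.10, and Unc5d 0.053, the latter from levels under every array's 25th percentile in both genotypes.

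Of the Slits, Slit2 and Slit3 fell, and of the Robos, Robo1 alone passed. Slit2, the best-studied Robo ligand, had levels of 11.29, 11.46 and 11.39 in Atxn3-WT MEFs and 9.63, 9.64 and 9.67 in Atxn3-KO MEFs. The arrays of each genotype were close together and the genotypes far apart, with a log2FC of -1.73 ± 0.054 (limma, adjusted p = 2.08e-06), which is 3.3-fold lower. The other 2 Slit2 probe sets gave -2.32 and -1.52. Slit3, a ligand also made by mesenchyme around vessels and diaphragm, had 8.53, 8.54 and 8.61 against 8.04, 7.94 and 8.02, a log2FC of -0.56 ± 0.048 (limma, adjusted p = 2.03e-04). Slit1, known chiefly from the nervous system, did not pass, with -0.10 (limma adjusted p = 0.271).

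Robo1 had 7.54, 7.61 and 7.57 in Atxn3-WT MEFs and 7.91, 7.77 and 7.74 in Atxn3-KO MEFs, a log2FC of 0.23 ± 0.056 (limma, adjusted p = 0.0206). The call was lost without Atxn3-WT replicate 1 or 3, and with the replicate number as a block (limma adjusted p = 0.0519). The dimmer Robo1 probe sets gave -0.033 and -0.047, so that the mean of the 3 was 0.051 (limma adjusted p = 0.441). Robo3, a receptor of commissural neurons, had 0.29 (95% interval 0.055 to 0.52, limma adjusted p = 0.0741). Robo4, the endothelial Robo, had -0.030, and Robo2 had -0.15 from levels under every array's 25th percentile.

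**Figure D3:**
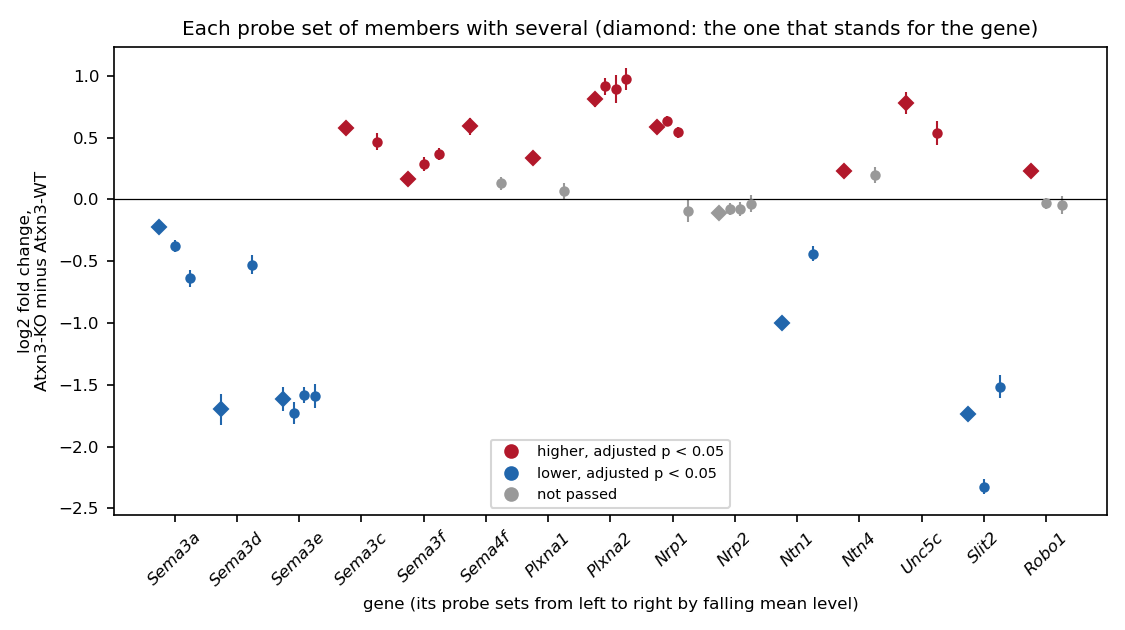
Log2 fold change (vertical axis) of every probe set of 15 guidance genes with several, in order of falling mean level within each gene; diamonds mark the probe set that stands for the gene and bars are standard errors. The probe sets of Sema3e, Slit2 and Plxna2 all passed on one side of 0. Those of Nrp1, Robo1, Sema4f, Plxna1 and Ntn4 did not all pass, and none of Nrp2 passed.

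Probe sets of one gene differed in the size of log2FC, and for some genes also in its sign. Of the 51 genes, 36 had several probe sets and 15 had 1. No gene had probe sets that passed in opposite directions, and for 10 of the genes that passed, every one of several probe sets passed on the same side. In other genes that passed, some probe sets did not, and for Nrp1, Robo1 and Sema6a these included probe sets of the other sign. Levels of 5 members stayed under every array's 25th percentile in both genotypes: Robo2, Ntn3, Unc5d, Unc5cl and Plxna4os1, with 0 passing. Of the genes not counted in the families, Unc50 fell by 0.26 on the log2 scale (limma adjusted p = 0.00360) and the other 2 had 0.018 and 0.046. In all, 33 members (64.7%) had groups that did not overlap, beside 49.2% of all genes.

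Partners and effectors of the 3 systems, taken from 6 lists, also moved both ways. Of 113 that were measured, 25 rose, 20 fell and 68 did not pass, so that 39.8% passed beside 31.8% of all genes, with a median log2FC of 0.021. In the Slit-Robo list, 10 of 29 were higher and 7 were lower, a share of 58.6% beside 31.8% of all genes. Srgap3, a GTPase-activating protein that binds Robo1, rose by 1.14 (± 0.064), and Sdc3, a heparan sulfate proteoglycan of the kind Slits need for binding, by 1.03 (± 0.062). Flrt3 and Flrt2, membrane proteins that bind Unc5 receptors, with Flrt3 also a Robo1 co-receptor, had -0.98 (± 0.061) and -0.87 (± 0.053). In this order their limma adjusted p-values were 3.05e-05, 3.95e-05, 4.65e-05 and 4.22e-05.

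For semaphorins and plexins, 6 of 33 effectors were higher and 8 were lower, a share of 42.4% beside 31.8% of all genes. Mical2, an oxidizing enzyme of the actin-regulating Mical family, had 0.68, and Rnd1, a small GTPase that binds plexins, had 0.59. Farp2, an exchange factor that acts downstream of Plexin-A1, had -0.78, and Crmp1, a collapsin response mediator, had -0.62. Of 15 co-receptors, 4 were higher and 2 were lower, a share of 40%. Flt1, a VEGF receptor that like neuropilins binds VEGF, had -1.63 ± 0.042 (limma, adjusted p = 9.80e-07) and Itga1, an integrin chain that pairs with the β1 chain to bind Sema7a, had 0.76, with Cspg4 at 0.32 and Ptk7 at -0.25.

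For netrins, 2 of 10 other receptors and ligands rose and 0 fell by limma, with 3 and 0 at an unadjusted p under 0.05. The 20% that passed is below the 31.8% of all genes. Rgma, the repulsive guidance molecule that binds neogenin, rose by 0.72 and Neo1, neogenin itself, by 0.26. Dcc, the attractive netrin receptor, had -0.13 (limma adjusted p = 0.483). Of 17 netrin effectors, 2 were higher and 2 were lower, a share of 23.5%, also below that of all genes. Dapk1, a death-associated kinase that signals from Unc5 receptors without ligand, had 1.47, and Trio, an exchange factor for Rac, 0.25. Appl1, an adaptor that binds Dcc, had -0.39, and Nfatc3 -0.19. Of 9 proteases that cut guidance proteins, Pcsk6 had 0.25 and Adam17 -0.28, and the other 7 did not pass, so that 22.2% passed.

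**Figure D4:**
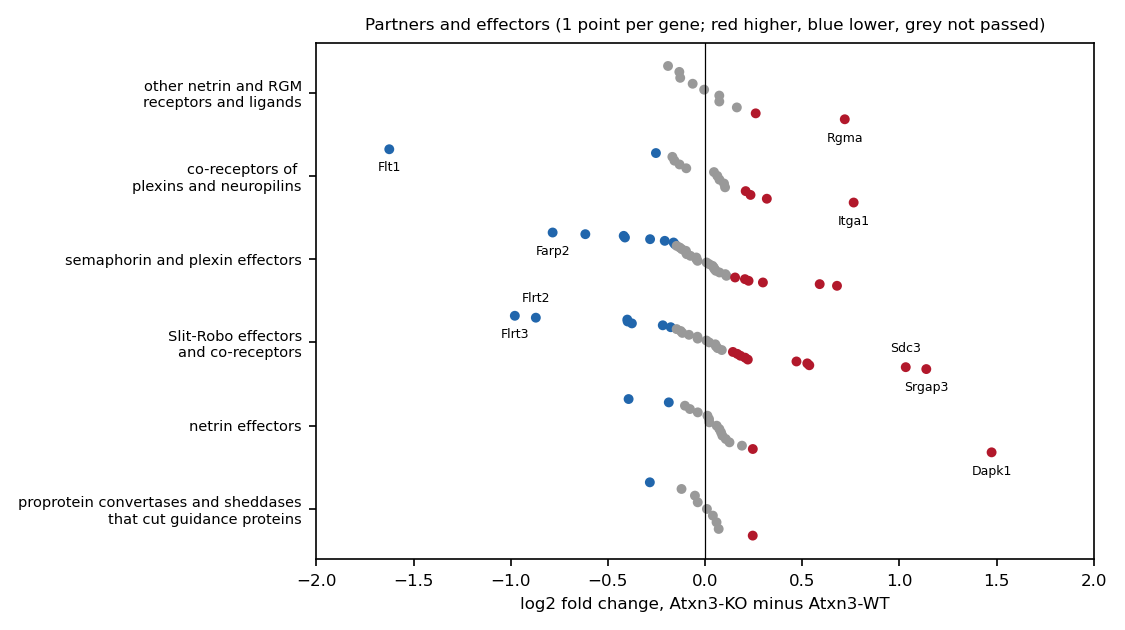
Log2 fold change (horizontal axis) of each measured gene of the 6 lists of partners and effectors; each point is 1 gene, red for higher and blue for lower at an adjusted p under 0.05. Flt1, Flrt3, Flrt2 and Farp2 are the lowest points and Dapk1, Srgap3 and Sdc3 the highest.

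Markers of other cell types were read on the same arrays, because guidance genes are also those of nerve and vessel cells. Of 10 endothelial, 10 macrophage and 10 skeletal muscle markers, 0 passed by limma, with 0, 3 and 1 at an unadjusted p under 0.05. Mean log2 levels of the endothelial list ran from 4.937 to 4.997 over the Atxn3-WT arrays and from 4.95 to 5.03 over the Atxn3-KO arrays, and Pecam1, Tek, Tie1 and Emcn stayed under every array's 25th percentile in both genotypes. Of 12 neuronal markers, 2 were higher (Map2 and Gap43) and 2 were lower (Stmn2 and Tubb3), 4 others lay below that percentile in both, and the list mean ran from 5.86 to 6.09 in Atxn3-WT and from 5.90 to 5.94 in Atxn3-KO MEFs. The 33.3% that passed stand beside 31.8% of all genes. The study's thresholds were met by 3 neuronal markers (25%), beside 1.93% of all genes, and log2FC values ran from -1.58 to 1.55. Of 7 glial markers Fabp7 was higher and Mbp lower, a share of 28.6%, with list means of 5.961 to 6.003 and 6.17 to 6.21. Glial log2FC values ran from -0.98 to 2.85. Of 10 epithelial markers Krt18 and Epcam were higher, a share of 20%, with 5.21 to 5.30 and 5.38 to 5.44. Epithelial log2FC values ran from -0.12 to 1.27. The part of these markers in the results above was not tested. Of 10 fibroblast markers 4 were higher and 4 were lower, and list means were 10.50 to 10.54 in Atxn3-WT and 10.65 to 10.73 in Atxn3-KO MEFs. The 80% of fibroblast markers that passed stand beside 31.8% of all genes, and their log2FC values ran from -0.40 to 1.91. Arrays of one genotype correlated at 0.998 to 0.999 and none stood apart. The number of arrays limits the precision of each value.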

How the data were processed

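RNA of MEFs, 3 Atxn3-WT and 3 Atxn3-KO by their labels, was measured on Affymetrix mouse genome arrays. The authors deposited log2 values normalized by RMA, which corrects background, makes the arrays' distributions alike and summarizes each probe set, so that a shift common to all genes is removed. The submitters' notes name RMA and limma without versions. From these values limma 3.58.1 in R 4.3.3 fitted Atxn3-KO minus Atxn3-WT with equal weights (lmFit, eBayes), since the weights of the study's linear model are not named, with Benjamini-Hochberg adjusted p-values across 45037 probe sets, with 64 of 45101 left out as controls and no filter on low values. Of these, 34945 name 1 gene, 932 several and 9160 are unnamed in the platform annotation. Of 18193 genes, 18145 matched RefSeq (GRCm38.p6), as did all 51 members. The fit was tested on simulated data.

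Per-array values are given for members with an adjusted p under 0.05 and a log2 fold change of at least 0.5, and for the brightest member of each family. Per-array values of Sema3a and Nrp2, the chromosome order, the promoters and the motifs were added after values were seen. From the lists of partners, up to 4 genes that passed are named, and Dcc was added after its value was seen. The members and lists were chosen with earlier results of these data known. Alternatives were array weights, a replicate block, quantile normalization, a filter, another variance model, other rules for a gene's probe set, each array left out in turn, a stricter threshold, and Unc50 and Unc5cl left out.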

Additional observations from a re-analysis of the deposited data

How the results depend on the processing

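Of 297 recomputed log2 fold changes of the 23 members that passed, 273 kept their side of an adjusted p of 0.05, 24 lost it and 0 changed direction. In 18 members every alternative run passed, and the losses were in Sema3f, Sema6a, Sema4a, Robo1 and Sema4f. The count of higher genes was 7 at an adjusted p of at most 0.001, in place of 14 at 0.05, and that of lower genes 6 in place of 9. With the replicate number as a block, 13 members were higher, 8 were lower and 4 met the study's thresholds, with 9801 in place of 11696 probe sets passing over the whole array. Same-numbered samples did not deviate together over the whole array, with correlations of 0.021, -0.023 and -0.036 for numbers 1, 2 and 3. The labels do not say whether they were paired, and an effect on few probe sets would not show in these correlations. With array weights 17 members were higher, 9 were lower and 4 met the study's thresholds, with 12206 probe sets passing over the whole array. With a trended and robust variance 20 members were higher and 9 lower. Leaving out probe sets under the median level gave 19 higher and 8 lower. The mean of a gene's probe sets gave 18 higher, 8 lower and 3 past the study's thresholds. Without Unc50, Unc5cl and Plxna4os1, a choice made after seeing the data, 14 were higher and 8 were lower. Leaving out 1 array gave 12 to 15 higher, 8 to 9 lower and 3 to 4 past the study's thresholds. Dim probe sets near the 25th percentile give fold changes that are not exact.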
